A study of Mus musculus with 6 samples.

Results

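The 10 genes described here encode the pigments and the core signalling proteins of mouse cone photoreceptors, and were chosen by name as the cone opsins and the cone forms of the phototransduction proteins. They are Opn1sw, Opn1mw, Arr3, Gnat2, Gnb3, Gngt2, Pde6c, Pde6h, Cnga3 and Cngb3, and all 10 were among the 55376 genes of the count table. RNA-seq was performed on whole retinas of 3 wild-type (WT) mice and 3 Wfs1-KO mice (genotype Wfs1-/-), all from post natal day 240 and labelled as strain C57x129, with no treatment named for either genotype. The Wfs1-KO mice carried the Wfs1 exon8del allele in every cell of the body, so that the retina was not the only tissue without the protein. Wfs1 encodes an endoplasmic reticulum membrane protein whose loss causes Wolfram syndrome, a disorder with progressive optic nerve atrophy. The sex of the mice, and whether a library held 1 or both retinas of a mouse, were not given in the sources used here. No difference of the cone genes between the genotypes passed the test, and the widest departures were in 1 mutant library, where 3 of the 10 were at least 2-fold above the other retinas while 6 were close to them.

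Cones serve daylight and colour vision. In the light, a cone opsin activates cone transducin, a G protein of an alpha, a beta and a gamma subunit. Transducin relieves the inhibition of cone phosphodiesterase, cyclic GMP falls and the cyclic nucleotide-gated channel of the outer segment closes. Arrestin then binds the phosphorylated opsin and ends its signal. Rods use the same chain with their own version of most of these proteins. In the mouse, many cones make both opsins, with the short-wavelength opsin more abundant in the ventral retina and the middle-wavelength opsin in the dorsal retina, and cones are a small minority beside rods.

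Upstream sequences are shown for both opsin genes, which the genotype comparison and the opsin ratio turn on, for Arr3, the gene with the most negative difference without the divergent library, and for Pde6h, which was raised in that library. They come from RefSeq on build GRCm38.p6, hold the 250 bases before the gene start, and run 5′ to 3′ on the gene's own strand with TAATC or its reverse GATTA, the core of the site of the photoreceptor homeodomain factors CRX and OTX2, in capitals. Opn1sw lies at chr6:29380514-29380763 on the minus strand, Opn1mw at chrX:74127216-74127465, Arr3 at chrX:100605247-100605496 and Pde6h at chr6:136954273-136954522, all 3 on the plus strand.
Opn1sw: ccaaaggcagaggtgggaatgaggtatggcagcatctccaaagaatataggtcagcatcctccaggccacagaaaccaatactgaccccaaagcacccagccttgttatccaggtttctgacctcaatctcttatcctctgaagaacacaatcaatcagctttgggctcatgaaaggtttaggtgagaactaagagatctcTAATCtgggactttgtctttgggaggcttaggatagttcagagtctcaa
Opn1mw: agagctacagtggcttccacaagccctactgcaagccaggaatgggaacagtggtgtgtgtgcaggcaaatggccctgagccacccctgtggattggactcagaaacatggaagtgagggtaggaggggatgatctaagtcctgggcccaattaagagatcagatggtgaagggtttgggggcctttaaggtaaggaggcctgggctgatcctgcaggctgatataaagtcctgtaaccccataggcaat
Arr3: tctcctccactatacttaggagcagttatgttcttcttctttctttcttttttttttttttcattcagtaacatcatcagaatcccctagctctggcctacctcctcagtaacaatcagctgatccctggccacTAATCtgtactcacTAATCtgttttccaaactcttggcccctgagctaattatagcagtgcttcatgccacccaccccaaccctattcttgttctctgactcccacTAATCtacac
Pde6h: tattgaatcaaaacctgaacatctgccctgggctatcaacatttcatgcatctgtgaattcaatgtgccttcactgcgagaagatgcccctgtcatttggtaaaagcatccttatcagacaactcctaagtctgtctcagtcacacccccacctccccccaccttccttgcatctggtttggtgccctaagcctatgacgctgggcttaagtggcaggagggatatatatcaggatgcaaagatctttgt

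Windows were held for 6 of the 10 genes, and the others were Gnb3, Gngt2, Pde6c and Cngb3. The letters TAATC, on either strand, were in 3 of the 6, in 1 copy in Opn1sw and Gnat2 and in 3 copies in Arr3, and 19.8% of 32817 promoter windows of the same length held them. The Opn1sw copy began 49 bases before the gene start, and the Arr3 copies began 116, 102 and 10 bases before it. The longer form TAATCC, which includes TAATC, was in Gnat2 alone among the 6, against 6.25% of all windows. The core of the MAF site, TGCTGA, and that of the nuclear receptor site, AGGTCA, were both in Opn1sw alone, against 16.1% and 14% of all windows. The Gnat2 window lay downstream of the start given for that gene in the count table and is not shown. These matches describe letters in a window and were not tested for binding.

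The libraries held between 17916885 and 101334381 counts, and 18547 genes passed the filter on low counts, with all 10 cone genes among them. Levels are in CPM, the counts of a gene relative to the TMM-scaled size of its library, and differences as log2 fold changes of Wfs1-KO over WT. Wfs1 itself separated the genotypes, with 64.9, 61.4 and 69.9 CPM in WT and 9.63, 0.90 and 11.5 CPM in Wfs1-KO replicates 1, 2 and 3. Even so, this targeted gene missed the threshold with all retinas (log2 fold change -3.15, standard error 0.77, edgeR adjusted p = 0.979). Without Wfs1-KO replicate 2 it passed (-2.64, standard error 0.16, edgeR adjusted p = 2.84e-05). A missed threshold in the fit of all retinas is therefore weak evidence about any gene. Wfs1-KO replicate 2 stood apart from the other libraries, correlating with them at a mean Pearson r of 0.918 over genes, against 0.962 to 0.971 for each of the others, and it set much of the spread (common dispersion 0.128, and 0.0322 without it). Results are therefore given with and without this retina. WT replicate 3 had 4 counts of Xist, the RNA of the inactive X chromosome, while every other retina had at least 10583, so the genotypes did not have the same mix of sexes. These counts are not scaled for library size. WT replicate 1 had 10583 in a library of 65714683 counts and WT replicate 2 had 19834 in 47599124. Wfs1-KO replicates 1, 2 and 3 had 79490 in 101334381, 31624 in 43475817 and 50095 in 43443859. Relative to library size, every WT retina was therefore below every mutant retina. Opn1mw and Arr3 are X-linked, and without WT replicate 3 their log2 fold changes were -0.19 and -0.31. Without WT replicate 1 they were -0.17 and -0.21. Leaving out 1 WT retina keeps the Xist difference between the genotypes, so sex and genotype cannot be told apart for these genes.

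The retinas expressed every cone gene well above the limit of counting. The smallest count was 281 for Cnga3 in WT replicate 3, with an exact 95% Poisson interval of 249.1 to 315.9 that covers counting error only, while a count of 0 in that library would have allowed up to 0.170 CPM. Per kb of exon in the count table, the WT mean was 201.7 CPM for Gnb3 and 185.0 CPM for Opn1sw, whose ranges overlapped at the head of the order. The Opn1sw value depends on a counted exon length of 2410 bases. Arr3 followed at 144.0 CPM per kb and overlapped neither neighbour. Gnat2 at 94.9 and Opn1mw at 91.4 CPM per kb were not separated, nor were Gngt2 at 36.2 and Pde6c at 35.6 CPM per kb. Pde6h had 17.1 CPM per kb, a value that depends on a counted exon length of 5940 bases. The channel subunits were lowest, with 4.58 CPM per kb for Cngb3 and 3.84 CPM per kb for Cnga3, and their WT ranges overlapped. Gnb3 is also made by ON bipolar cells, so in whole retina its level is not that of cones alone.

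**Figure D1:**
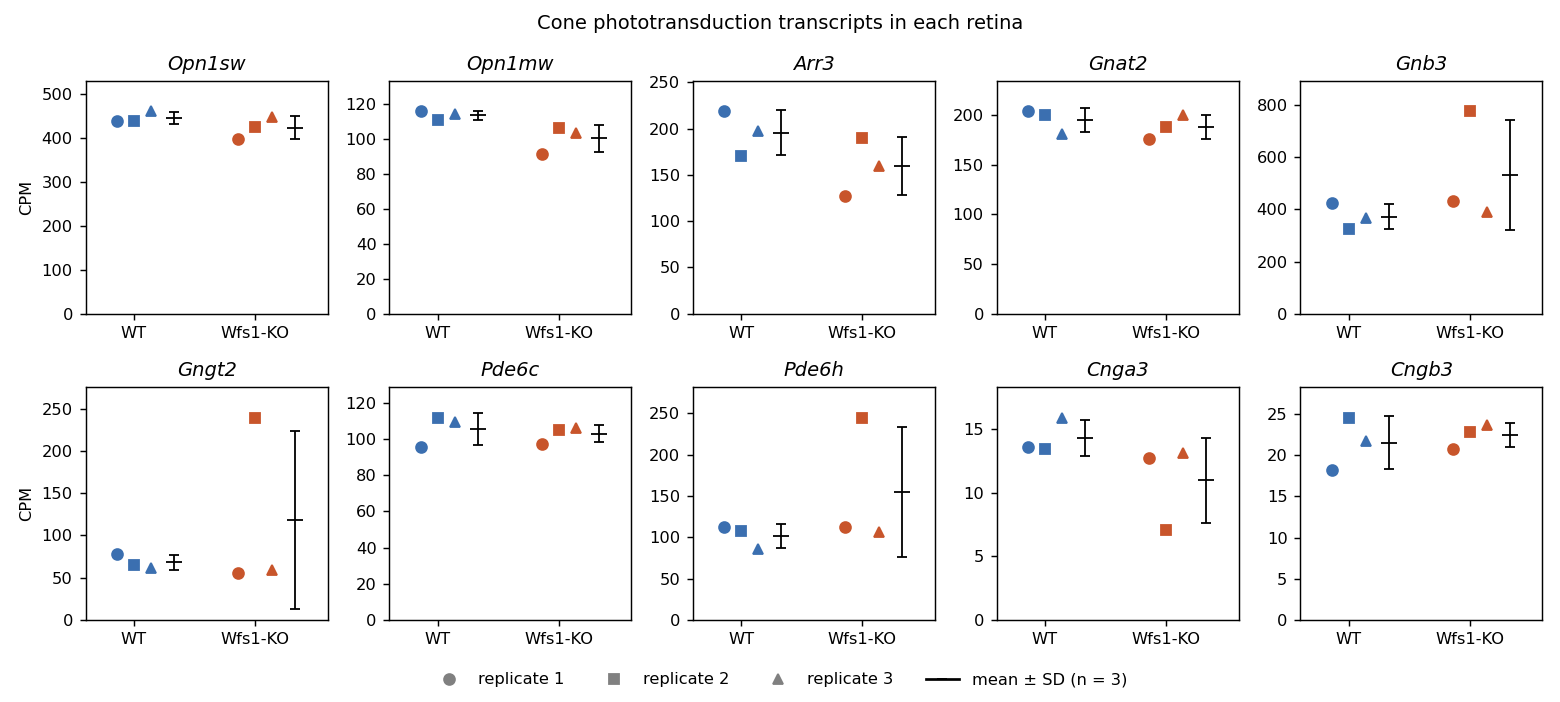
Level of each cone gene in CPM (vertical axis of each panel, starting at 0) in the 3 WT and 3 Wfs1-KO retinas, with marker shape giving the replicate number and the black bar the mean ± SD (n = 3). Wfs1-KO replicate 2, the square among the mutant retinas, lies far above the others for Gnb3 (776.2 CPM), Gngt2 (239.4 CPM) and Pde6h (244.9 CPM) and below them for Cnga3 (7.08 CPM).

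The opsins were the first question of the genotype comparison. Opn1sw, the short-wavelength opsin on chromosome 6 (mm10, 29376671 to 29380513), had 438.0, 438.6 and 460.7 CPM in the WT retinas and 397.2, 425.6 and 448.2 CPM in the Wfs1-KO retinas. The genotypes overlapped, with mutant replicate 3 inside the WT range and the other 2 below it. The log2 fold change was -0.07 (standard error 0.15, 95% interval -0.43 to 0.29, adjusted p = 0.979 in edgeR, corrected over all tested genes). Its counted exons share 397 bases with Calu on the opposite strand, and Calu was at 148.5 to 177.5 CPM in the 6 retinas with no separation of the genotypes.

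Opn1mw, the middle-wavelength opsin on chromosome X (74127464 to 74150760), had 116.0, 110.9 and 114.3 CPM in WT and 91.6, 106.5 and 103.4 CPM in Wfs1-KO retinas. Each mutant retina lay below each WT retina, although the highest mutant and the lowest WT value were close. The log2 fold change was -0.18 (standard error 0.15, 95% interval -0.54 to 0.18, edgeR adjusted p = 0.979), and -0.23 without Wfs1-KO replicate 2. In WT, Opn1mw and Opn1sw were the least variable cone genes, with coefficients of variation of 2.29% and 2.90% (n = 3), while that of Cngb3, the most variable, was 14.9%.

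The balance of the opsins was compared as the ratio of Opn1sw to Opn1mw, each per kb. The size of the ratio depends on the counted exon lengths of 2410 bases for Opn1sw and 1244 for Opn1mw. These lengths divide out of the log2 difference between genotypes. The ratio was 1.95, 2.04 and 2.08 in WT and 2.24, 2.06 and 2.24 in the Wfs1-KO retinas. Mutant replicates 1 and 3 lay above every WT retina and replicate 2 lay within the WT range. On the log2 scale the mean was 0.11 higher in Wfs1-KO (two-sided exact permutation test over 20 assignments of the 6 retinas, p = 0.2, where the design allows no p under 0.1). Without replicate 2 the difference was 0.15 (exact permutation test, p = 0.1, the smallest that 10 assignments gave).

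**Figure D2:**
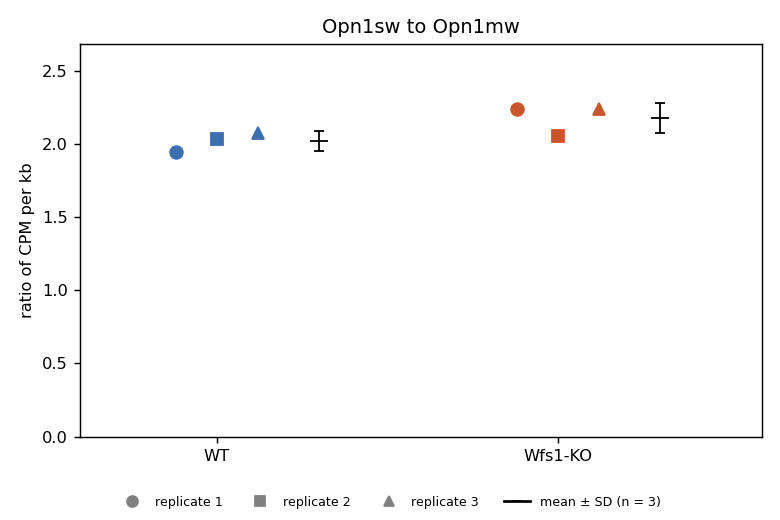
Ratio of Opn1sw to Opn1mw (vertical axis from 0, CPM per kb of each) in each retina. Markers give the replicate and black bars the mean ± SD (n = 3): the ratio spans 1.95 to 2.08 in WT and 2.06 to 2.24 in Wfs1-KO, with Wfs1-KO replicate 2 inside the WT range.

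Cone arrestin had the most negative difference of the 10 once the divergent library was left out. Arr3 (chromosome X, 100605497 to 100618493), which shuts off activated cone opsin, had 218.5, 170.7 and 197.8 CPM in WT and 127.6, 190.0 and 159.9 CPM in Wfs1-KO retinas. Mutant replicate 2 lay within the WT range, whereas replicates 1 and 3 lay below it. The log2 fold change was -0.30 with all retinas (standard error 0.21, edgeR adjusted p = 0.979). Without Wfs1-KO replicate 2 it was -0.45 (standard error 0.16, 95% interval -0.80 to -0.10, unadjusted p = 0.0154, adjusted p = 0.753 from edgeR's test), and DESeq2 gave an adjusted p of 0.476. Arr3 was also the cone gene with the widest spread over the other 5 retinas, a coefficient of variation of 20.0%, and across the 6 retinas its log2 CPM had a Pearson r of 0.937 with that of Opn1mw, a description over retinas that share their library with both genes.

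The cone transducin subunits did not behave alike across the retinas. Gnat2, the alpha subunit that carries the signal from opsin to phosphodiesterase (chromosome 3, 108092789 to 108101432), had 203.7, 200.2 and 180.7 CPM in WT and 175.9, 187.6 and 199.6 CPM in Wfs1-KO retinas. The ranges overlapped in part, with mutant replicate 1 below every WT retina, and the log2 fold change was -0.05 (standard error 0.16, 95% interval -0.42 to 0.32). Gnb3, the beta subunit (chromosome 6, 124834240 to 124840275), had 423.4, 325.0 and 368.7 CPM in WT and 432.4, 776.2 and 390.0 CPM in the mutant retinas. Mutant replicate 2 alone lay far above the WT range. Its log2 fold change was 0.52 (standard error 0.29), and 0.14 (standard error 0.14) without that retina.

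Gngt2, the gamma subunit that anchors cone transducin to the membrane (chromosome 11, 95837216 to 95845734), showed the same contrast more strongly. It had 77.9, 64.9 and 60.9 CPM in WT and 55.2, 239.4 and 58.6 CPM in Wfs1-KO retinas. Replicates 1 and 3 were thus below the WT range and replicate 2 far above it, so that the sign of the difference depended on that library. The log2 fold change was 0.79 (standard error 0.56, 95% interval -0.52 to 2.11), and -0.26 (standard error 0.15, 95% interval -0.59 to 0.06) without it. Gngt2 shares 234 exon bases with Abi3 on the opposite strand, and Abi3 had 2.04 to 3.10 CPM in the 6 retinas.

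Of the phosphodiesterase genes, the catalytic subunit was even across retinas and the inhibitory subunit was not. Pde6c, which hydrolyses cyclic GMP in cones (chromosome 19, 38132781 to 38183958), had 95.8, 112.0 and 109.5 CPM in WT and 97.5, 105.2 and 106.1 CPM in the mutant retinas. All 3 mutant values lay within the WT range, and the log2 fold change was -0.04 (standard error 0.16, 95% interval -0.41 to 0.33). Pde6h, the inhibitory gamma subunit (chromosome 6, 136954523 to 136968865), had 111.9, 107.2 and 85.4 CPM in WT and 112.1, 244.9 and 106.5 CPM in Wfs1-KO retinas. Again mutant replicate 2 stood alone. The log2 fold change of Pde6h was 0.61 (standard error 0.34), and 0.10 (standard error 0.15) without it.

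The cone channel subunits also parted in that library. Cnga3, the alpha subunit that forms the cation pore (chromosome 1, 37218379 to 37263384), had 13.6, 13.4 and 15.9 CPM in WT and 12.7, 7.08 and 13.1 CPM in Wfs1-KO retinas. Every mutant value was below every WT value, by a narrow gap for replicates 1 and 3. The log2 fold change was -0.39 (standard error 0.27, 95% interval -1.02 to 0.25), and -0.15 (standard error 0.17) without replicate 2. Cngb3, the modulatory beta subunit (chromosome 4, 19280850 to 19510623), had 18.2, 24.6 and 21.8 CPM in WT and 20.8, 22.9 and 23.7 CPM in the mutant retinas. All 3 mutant values lay within the WT range, and the log2 fold change was 0.06 (standard error 0.19, 95% interval -0.37 to 0.50).

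Counted over the 10 genes, 0 passed an adjusted p under 0.05 in edgeR's test, against 0.0108% of all tested genes. The adjusted p-values were 0.979 to 0.982, and DESeq2 and limma-voom also gave no cone gene under the threshold. At an unadjusted p under 0.05 the count was again 0 of 10, against 2.81% of all genes (2.24% higher and 0.566% lower in Wfs1-KO). Without Wfs1-KO replicate 2 the count at an adjusted p under 0.05 was 0 of 10, against 0.125% of 19178 genes. In that fit Arr3 was the 1 cone gene with an unadjusted p under 0.05, against 5.19% of all genes (2.80% higher and 2.39% lower). A missed threshold does not show equal levels, since the 95% intervals reached -0.43 to 0.29 even for Opn1sw.

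The genotypes did not overlap for 2 of the 10 cone genes, against 8.96% of all genes. Both were lower in Wfs1-KO (Opn1mw and Cnga3, against 3.94% of all genes), and 0 were higher (5.01% of all genes). Without replicate 2 the number was 4, namely Opn1mw, Arr3, Gngt2 and Cnga3, against 22.4% of all genes. All 4 were lower, where 11.0% of all genes were lower and 11.4% higher. The median log2 fold change of the 10 genes was -0.05 (all genes 0.02), with 6 negative and 4 positive. Without that retina it was -0.07 (all genes -0.000382), with 7 negative and 3 positive. In whole retina, fewer cones and less RNA per cone cannot be told apart.

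**Figure D3:**
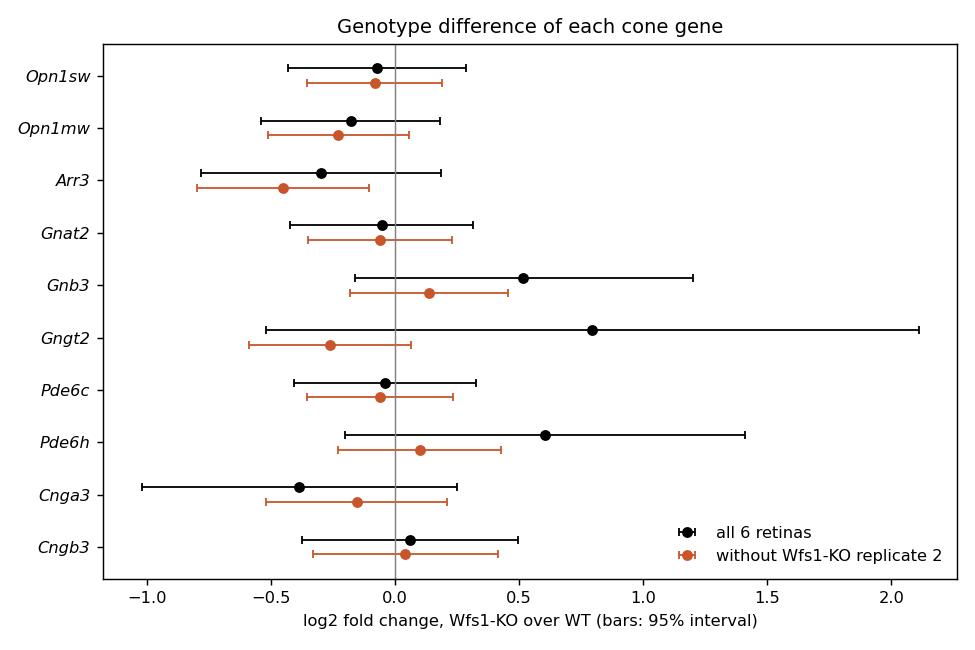
Log2 fold change of Wfs1-KO over WT for each cone gene (horizontal axis) with its 95% interval from edgeR, for all 6 retinas (black) and without Wfs1-KO replicate 2 (orange). Every black interval includes 0; without the divergent retina the intervals of Gnb3, Gngt2 and Pde6h narrow and move toward or past 0, and that of Arr3 (-0.80 to -0.10) lies below 0.

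The divergence of Wfs1-KO replicate 2 split the cone genes into groups. Its level was 3.77 times the mean of the other 5 retinas for Gngt2, 2.34 times for Pde6h and 2.0 times for Gnb3. For Cnga3 it was 0.515 times that mean. The remaining 6, both opsins, Arr3, Gnat2, Pde6c and Cngb3, lay between 0.975 and 1.09 times, so in the same library the alpha subunit of transducin and the catalytic subunit of phosphodiesterase were level while their gamma partners were raised. At least 2-fold above the other retinas were 3 of 10 cone genes, against 17.2% of all genes, and at least 2-fold below were 0 of 10, against 14.1%. Replicate 2 was the highest of the 6 retinas for those 3 genes (38.4% of all genes) and the lowest for Cnga3 (36.8% of all genes).

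Some rod counterparts parted from the cone genes in this library and others did not. Cnga1, the rod channel alpha subunit, was 3.24 times the mean of the other 5 retinas where Cnga3 was reduced. Gngt1, the rod transducin gamma subunit, was raised together with Gngt2, at 1.99 times that mean, and Sag, the rod arrestin, was at 1.40 times. Gnat1, the rod transducin alpha subunit, was 0.634 times that mean, against 0.977 times for Gnat2. Gnb1, which serves as the rod beta subunit and is widely expressed, was 0.800 times that mean where Gnb3 was raised. Of the rod phosphodiesterase subunits, the catalytic Pde6b was 0.785 times and the inhibitory Pde6g 1.12 times the mean, and the channel beta subunit Cngb1, at 0.999 times, was level as Cngb3 was.

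**Figure D4:**
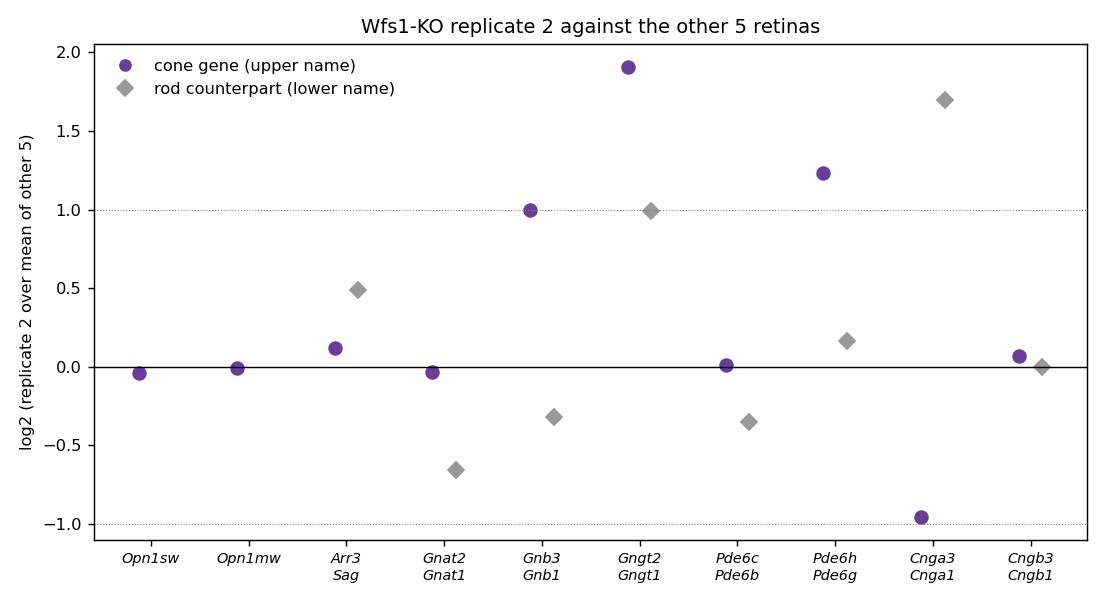
Log2 ratio of the CPM in Wfs1-KO replicate 2 to the mean of the other 5 retinas for each cone gene (circles) and its rod counterpart (diamonds, named below the cone gene, none drawn for the opsins); dotted lines mark a 2-fold difference. Gngt2, Pde6h and Gnb3 are raised and Cnga3 reduced, while both opsins, Gnat2 and Pde6c lie near 0 with Gnat1 below it.

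Other quantities moved with this library. Across 18357 genes its deviation had a Spearman rank correlation of -0.411 with counted exon length, a description over genes that are not independent. The counted exons measured 1846 (Gnb3), 1877 (Gngt2) and 5940 bases (Pde6h) for the raised cone genes, 3731 bases for the reduced Cnga3 and 1244 (Opn1mw) to 4708 bases (Cngb3) for the 6 that were level. Marker sums of other cells were also raised in it, with 339.1 CPM for 10 microglia and macrophage markers (46.7 to 71.7 CPM in the other retinas), 479.9 CPM for 5 blood markers (12.3 to 41.2 CPM) and 511.2 CPM for 12 pigment epithelium markers (56.4 to 175.4 CPM). Of the microglia and macrophage markers, 8 of 10 were at least 2-fold above the other retinas, with Cx3cr1 at 5.82 times and Tmem119 at 2.52 times their mean and P2ry12, the nearest to it, at 1.14 times. Of the blood markers 5 of 5 were at least 2-fold above, with the haemoglobin gene Hba-a1 at 180.3 CPM, against 3.06 to 9.35 CPM. Of the pigment epithelium markers it was 8 of 12, and Ttr alone gave 234.5 CPM of their sum. Short of that mark were Rpe65 at 1.96, Slc45a2 at 1.95, Best1 at 1.14 and Lrat at 0.766 times the mean of the other 5. None of the markers in these lists had 0 counts in replicate 2. The sum of 8 Müller glia markers was 7627.5 CPM there (5208.6 to 6393.3 CPM elsewhere), with 1 gene at least 2-fold above and 1 below. That of 8 ganglion cell markers was 1354.6 CPM (857.8 to 1151.6 CPM), with 1 above and 0 below. Lower than elsewhere were the sums of 12 photoreceptor structure genes, at 18479.7 CPM (20221.2 to 22682.6 CPM), and 12 shared recovery and feedback genes, at 9547.1 CPM (11676.2 to 13465.3 CPM). For Gnb3, the sum of 10 ON bipolar markers was 1595.4 CPM, close to 1593.8 CPM in mutant replicate 1 and above 1482.1 CPM in replicate 3, and all 3 were above the WT range of 1313.6 to 1396.5 CPM. The list went both ways in replicate 2, with 3 genes at least 2-fold above and 1 at least 2-fold below the other retinas. Gng13, the gamma partner of Gnb3 in ON bipolar cells, was at 137.3 CPM in replicate 2 (35.4 to 49.4 CPM elsewhere) and Pcp2 at 335.0 CPM (95.6 to 154.9 CPM), whereas the glutamate receptor gene Grm6 was at 105.4 CPM, within its range of 101.1 to 136.7 CPM, and Nyx, Prkca and Gpr179 were at 0.335, 0.607 and 0.678 times the mean of the other 5. The part of these quantities in the cone values was not tested.

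The 8 cone genes other than the opsins were also set against a rod counterpart in the same retina, as a percentage of the rod gene's level per kb. Arr3 was 5.60%, 4.99% and 5.59% of Sag in WT and 4.45%, 3.99% and 4.92% in Wfs1-KO, lower in every mutant retina. In Wfs1-KO replicate 2 Arr3 itself was inside its WT range. Sag was above its own there, at 6055.8 CPM against 4348.1 to 4964.9 CPM in WT. Pde6h was 0.689%, 0.798% and 0.634% of Pde6g, the rod inhibitory subunit, in WT and 0.924%, 1.63% and 0.886% in the mutant retinas, higher in every one. In mutant replicates 1 and 3 Pde6h itself was at 112.1 and 106.5 CPM, against 85.4 to 111.9 CPM in WT. Pde6g was below its WT range there, at 1837.8 and 1821.1 CPM against 2035.8 to 2460.0 CPM. The percentage overlapped between the genotypes for the other 6 pairs. How often such percentages separate the genotypes over other pairs of genes was not computed. Pde6c, for example, was 4.49% ± 0.554 of Pde6b in WT and 5.10% ± 0.668 in Wfs1-KO (SD, n = 3 each).

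The 9 rod genes compared had 0 of 9 past an unadjusted p of 0.05 with all retinas and a median log2 fold change of -0.14. Without Wfs1-KO replicate 2, all 9 were negative with a median of -0.23, and 3 had an unadjusted p under 0.05 in edgeR's test, all lower, against 5.19% of all genes (2.39% lower, median over all genes -0.000382). These were Gngt1 (log2 fold change -0.56, standard error 0.16), Cnga1 (-0.29, standard error 0.13) and Gnat1 (-0.23, standard error 0.10), with adjusted p-values of 0.572, 0.938 and 0.902. The cone members of these pairs had -0.26 for Gngt2, -0.15 for Cnga3 and -0.06 for Gnat2 in the same fit. The genotypes did not overlap for 3 of the 9 rod genes with all retinas and for 7 of 9 without replicate 2, all lower. Of all genes, 3.94% and 11.0% were lower with no overlap in these fits. Whether cone and rod genes differed in their response was not tested.

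Genes that act with the cone cascade were taken from lists of 12 shared recovery and feedback genes, 18 regulators of photoreceptor transcription, 5 other cone-enriched genes and 12 photoreceptor structure genes. With all retinas no gene of these lists passed an adjusted p under 0.05 in edgeR's test. Among the recovery genes 1 of 12 was lower at an unadjusted p under 0.05 and 0 were higher, against 0.566% and 2.24% of all genes. It was Guca1a, an activator of guanylate cyclase, with 25.1, 26.0 and 20.9 CPM in WT and 16.9, 12.3 and 17.8 CPM in Wfs1-KO (log2 fold change -0.61, standard error 0.21, edgeR adjusted p = 0.979). Without replicate 2, Grk1, the opsin kinase that rods and mouse cones share, joined it (-0.27, standard error 0.12, edgeR adjusted p = 0.922). In that fit 2 of 12 were lower and 0 higher, against 2.39% and 2.80% of all genes. Grk1 had 1052.9 CPM in replicate 2 and 1901.7 to 2555.3 CPM elsewhere. In that retina 6 of the 12 recovery genes were at least 2-fold below the mean of the other 5, as were 4 of the 12 structure genes. In both lists 0 were at least 2-fold above it. Of all genes, 14.1% were that far below and 17.2% that far above.

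Regulators with a known role in cone identity gave no call with all retinas. At an unadjusted p under 0.05 in edgeR's test were 0 of 18, against 2.81% of all genes. Thrb, the thyroid hormone receptor needed for the middle-wavelength opsin, had -0.15 on the log2 scale (standard error 0.22), and Rxrg, which represses the short-wavelength opsin in dorsal cones, 0.15 (standard error 0.23). Crx, the homeodomain activator of opsin genes, had -0.25 (standard error 0.17), with 1212.0, 1335.0 and 1150.5 CPM in WT and 1107.5, 892.4 and 1114.8 CPM in Wfs1-KO. Every mutant retina was lower than every WT retina for Crx and Nr2e3, and higher for Rora (0.52, standard error 0.26) and Sall3 (0.27, standard error 0.20). So 2 of 18 regulators were separate in each direction, against 3.94% of all genes lower and 5.01% higher. Without replicate 2, Nr2e3 (-0.38), a rod factor that represses cone genes, and Samd7 (-0.36) had an unadjusted p under 0.05 in edgeR's test, with adjusted p-values of 0.813 and 0.957. That made 2 of 18 lower and 0 higher, against 2.39% and 2.80% of all genes. Of the 5 other cone-enriched genes, which share Slc24a2 with the recovery list, 4 were tested and 0 passed the unadjusted threshold in either fit. Of all genes, 2.81% passed it with all retinas and 5.19% without replicate 2.

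Among the structure genes, 2 of 12 were lower at an unadjusted p under 0.05 in either fit, against 0.566% of all genes with all retinas and 2.39% without replicate 2, and 0 were higher. Aipl1, a chaperone that rod and cone phosphodiesterase require, had 1130.1, 876.7 and 917.6 CPM in WT and 687.2, 573.6 and 676.9 CPM in Wfs1-KO. The genotypes were separate, and the difference was -0.59 on the log2 scale (standard error 0.18, edgeR adjusted p = 0.979), and -0.52 (edgeR adjusted p = 0.485) without replicate 2. Its client Pde6c had -0.04 and -0.06 in the same fits. Rdh12, a retinol dehydrogenase of the inner segment, had -0.43 (standard error 0.16, edgeR adjusted p = 0.979), and -0.37 without that retina.

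By a rule that ranked 14993 genes on the Pearson r of their log2 CPM with the mean standardized level of the 10 cone genes, the most alike were Immt (0.993), Tesc (0.990), Irx2 (0.984), Npas4 (0.960) and Tmem35a (0.938). This is a description over 6 retinas. The mean cone level was lowest in Wfs1-KO replicate 1 (-0.88 SD), highest in Wfs1-KO replicate 2 (0.42 SD) and between 0.0403 and 0.222 SD in the other 4, and the pattern of these genes turned on replicate 1. Immt, which organizes mitochondrial cristae, had 143.9 CPM in that retina and 158.1 to 165.0 CPM in the others, and Irx2, a homeodomain factor, 4.12 CPM against 5.31 to 5.97 CPM.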

How the data were processed

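RNA-seq libraries of 3 WT and 3 Wfs1-KO retinas were analysed from the deposited table of read counts per gene. The authors trimmed reads, mapped them to mm10 and counted reads on the merged exons of each gene, without normalization (submitters' processing notes: Trimmomatic 0.39, STAR 2.5.3a, featureCounts 1.6.4). Strand use in counting was not given in the sources used here. Library columns were matched to the labels by letter and replicate number, with C read as control and W as Wfs1, and the lower Wfs1 counts of the W columns were a check made afterwards. Of 8 library columns, 2 had a number that no sample carries and were left out. No pair of libraries was identical. Counts were tested in R 4.3.3 with edgeR 4.0.16 (TMM, filterByExpr, quasi-likelihood F test, Benjamini-Hochberg over 18547 genes). Alternatives used DESeq2 1.42.0, limma 3.58.1 (voom), other normalizations and filters, a replicate block and each retina left out. CPM used the library size of tested genes times the TMM factor, and levels between genes were divided by exon length. P-values set the genotype difference against the spread between retinas. On simulated counts (18226 genes), edgeR found 166 of 200 genes given a log2 change of 2, and 4.60% of its calls were false. The simulation gave all genes the same dispersion and held no divergent library, so these rates need not hold for the real retinas. Gene overlaps came from GENCODE M21 and promoter windows from RefSeq. The cone genes and all lists were chosen with earlier results of these data known. Genes named are the 10 cone genes, 9 rod counterparts, Wfs1, up to 5 genes per other list by unadjusted p under 0.05 in either fit, and 5 most alike in pattern. Calu, Abi3, Xist, P2ry12, Gng13, Pcp2, Grm6, Nyx, Prkca, Gpr179, Tmem119, Ttr, Slc45a2, Best1, Rbpms, Thrb, Rxrg, Crx, Rora and Sall3 were named outside this rule, with their values seen. Some items are not reported here.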

Additional observations from a re-analysis of the deposited data

How the results depend on the processing

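Each log2 fold change of the 44 named genes was recomputed under the alternatives (614 values): 562 kept sign and side of the threshold, 46 changed sign, 6 newly passed with the same sign and 0 lost a call. Of the 46, 2 also passed (Rdh5 and Rgr, DESeq2 without Wfs1-KO replicate 2), so 8 values newly passed, the others being 3 of Wfs1, 2 of Lrat and 1 of Rpe65. The number of genes past the threshold was 2 in edgeR's fit of all retinas, 52 with DESeq2, 9 without the filter on low counts, 0 to 24 with 1 retina left out (24 without Wfs1-KO replicate 2) and 94 with DESeq2 without that retina. Cone genes at an unadjusted p under 0.05 numbered 0, and 0 to 1 with 1 retina left out. The count was 1, Arr3, without Wfs1-KO replicate 2, by edgeR and by DESeq2. Same-numbered retinas come from different mice, and their deviations correlated at -0.234, -0.111 and 0.0784. With 3 retinas a genotype, these values cannot show whether same-numbered libraries shared a processing step. With the replicate block 1 gene passed and 310 had an unadjusted p under 0.05, and no retina correlated best with its own number. The paired log2 difference of the opsin ratio was 0.107 (exact permutation test of the signs, p = 0.25, the smallest 3 pairs allow).

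Sign changes among cone genes were Gngt2 to -0.263 without Wfs1-KO replicate 2 (edgeR and DESeq2), Pde6c to 0.00267 without WT replicate 2 and Cngb3 to -0.0489 without WT replicate 1. Without Wfs1-KO replicate 2, by edgeR and DESeq2, signs also changed for Sag (-0.248), Gngt1 (-0.56), Cnga1 (-0.287), Rdh5 (-1.07) and Rgr (-0.947 and -0.951). Sag had -0.00853 with DESeq2 and RLE, -0.0344 with limma-voom, -0.035 without the filter, -0.03 with the replicate block, -0.0387 without WT replicate 2 and -0.0338 without WT replicate 3. Gngt1 had -0.0963 with limma-voom, -0.00357 without the filter, -0.0883 with the block and -0.0979 without WT replicate 3. Rdh5 had -0.36 with limma-voom and -0.248 with the block. Rgr had -0.306 with limma-voom, -0.0244 without the filter, -0.302 with the block, -0.101 without WT replicate 1 and -0.00457 without WT replicate 3. Nefm had 0.00558 with upper-quartile normalization, 0.0184 without WT replicate 1, and 0.155 and 0.0991 without Wfs1-KO replicates 1 and 3. Tyr had 0.00664 with upper-quartile normalization, 0.456 without WT replicate 2, and 0.366 and 0.353 without Wfs1-KO replicates 1 and 3. Rpe65 had 0.161 without WT replicate 2 and 0.00298 without Wfs1-KO replicate 3. Without Wfs1-KO replicate 1, Immt had 0.0238, Tesc 0.0932, Irx2 0.0329 and Npas4 0.0712. Apart from the smaller number of retinas, the cause of these changes was not tested. The other ends of the leave-one-out ranges were 1.13 for Gngt2, -0.107 for Pde6c, 0.168 for Cngb3, 0.143 for Sag, 0.29 for Gngt1, 0.946 for Cnga1, -0.392 for Nefm, 0.663 for Rdh5, 0.412 for Rgr, -1.22 for Rpe65, -1.54 for Tyr, -0.0764 for Immt, -0.609 for Tesc and -0.412 for Npas4. With 3 retinas a genotype, and 1 that stands apart, differences of the size of the intervals given could not be detected.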

Other observations

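Markers of other retinal and neighbouring cells gave further values around the cone results. The 12 pigment epithelium markers turned on Wfs1-KO replicate 2. With all retinas 9 of 12 were positive, the median log2 fold change was 0.47 and 1 was lower at an unadjusted p under 0.05 in edgeR (0.566% of all genes). Without that retina the median was -0.78, 7 were lower (2.39% of all genes) and 0 higher at that threshold, and 8 were lower with no overlap (11.0% of all genes). The pigment epithelium supplies photoreceptors with recycled chromophore. Lrat, which esterifies retinol there, had 5.83, 11.9 and 7.95 CPM in WT and 2.38, 4.59 and 1.91 CPM in Wfs1-KO. On the log2 scale it differed by -1.54 (standard error 0.42, edgeR adjusted p = 0.979), and by -1.99 (standard error 0.31, edgeR adjusted p = 0.0467) without replicate 2. In that fit Rpe65, the retinoid isomerase, had -1.22 (edgeR adjusted p = 0.551), Rdh5 -1.07 (0.185 adjusted), Rgr -0.95 (0.331 adjusted) and Tyr, the first enzyme of melanin synthesis, -1.54 (0.627 adjusted). DESeq2 without the same retina gave adjusted p-values of 7.79e-08 for Lrat, 0.0033 for Rdh5, 0.00767 for Rgr, 0.0314 for Rpe65 and 0.179 for Tyr. How much pigment epithelium stayed with each dissected retina was not tested.

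Of 8 Müller glia markers, Glul, the glutamine synthetase, had 2324.9, 1948.6 and 2683.2 CPM in Wfs1-KO, against 2966.9 to 3244.9 CPM in WT. It was lower in every mutant retina, a difference of -0.42. Car14, a carbonic anhydrase, had -0.31 without replicate 2. With all retinas 2 of the 8 were lower with no overlap, against 3.94% of all genes, and 0 were higher. In either fit 2 of the 8 were positive and 6 negative. Of 8 ganglion cell markers, the neurofilament genes Nefm (-0.39) and Nefl (-0.36) had an unadjusted p under 0.05 without replicate 2 and none with it. In the fit without it 7 of the 8 were negative and 1 positive, Rbpms at 0.08, which missed that threshold. Of 10 ON bipolar markers, 0 had an unadjusted p under 0.05 in edgeR's test in either fit. Of 10 microglia and macrophage markers, Cx3cr1 was higher (1.61), and 0.39 higher without replicate 2, where it missed that threshold. Of 5 blood markers, Hba-a1 was higher (3.39) only with replicate 2 included, and was 0.05 without it. Of 14 lens markers 5 were tested, with Bfsp2 at 2.74 on at most 1.21 CPM in any retina, and Crybb2 at 1.5 without replicate 2. All are log2 fold changes with an unadjusted p under 0.05 in edgeR's test unless said otherwise, and none of the genes in this paragraph passed after adjustment. At that unadjusted threshold 2.24% of all genes were higher and 0.566% lower with all retinas. Without replicate 2 the shares were 2.80% and 2.39%.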
